A study of Homo sapiens with 6 samples.

Results

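Genes named for vesicle coats, tethers, adaptors, sorting nexins and SNAREs made up 12 of the 1273 genes in the deposited expression table of Rh30 cells expressing pannexin 1 (PANX1) or a GFP control. They were chosen by gene symbol alone, as entries whose name starts with TRAPPC, VPS, COPA, COPB, COPE, COPG, COPZ, SNX, STX, VAMP, EXOC or ARFGAP, with SEC, ARF or COG followed by a digit, or with AP1 to AP4 followed by a subunit letter. GENCODE, on the genome build of the table, holds 203 protein-coding genes with such names, and those outside the table were not analysed here. The 12 genes were TRAPPC5, TRAPPC6A, COPE, ARFGAP1, AP1M1, AP1B1, STX10, STX1A, SNX8, VPS18, VPS28 and VPS13A. Rh30 is a human line from an alveolar rhabdomyosarcoma, a childhood tumor of the skeletal muscle lineage. Both groups were Rh30 cells with a stable CymR repressor and a lentiviral cumate switch vector that makes GFP constitutively from an EF1 promoter, kept under geneticin and puromycin selection. Cells of both groups, all 6 libraries, were given cumate at 30 µg/mL for 48 h. Cumate released expression of PANX1 in one group of 3 libraries, and the other group of 3 libraries carried the GFP vector. Whether each stable line came from 1 clone is not given in the sources used here. Poly-A RNA was sequenced and the values are FPKM, fragments scaled to transcript length and to mapped fragments. The table holds as many genes as the study called changed on these libraries, so each gene below had already been selected for a difference in the same 6 libraries, and a test here describes the spread between the libraries.

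Cargo leaves the endoplasmic reticulum in vesicles, passes through the Golgi and is sorted at the trans-Golgi network to the cell surface or to endosomes and lysosomes. Coat proteins such as COPI and the clathrin adaptor AP-1 select cargo and bend the membrane, ARF GTPases switch coats on and ARF GTPase-activating proteins switch them off, tethers such as TRAPP and HOPS catch the arriving vesicle, and SNAREs such as the syntaxins fuse it. ESCRT complexes sort ubiquitinated membrane proteins into the interior of multivesicular endosomes, and sorting nexins return other proteins from endosomes to the Golgi. Muscle cells use the same machinery to deliver receptors, channels and adhesion proteins to their surface, and PANX1 is itself a membrane glycoprotein carried along this route.

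The promoters of the 2 TRAPP genes, which had the highest ratios, and of VPS13A, the gene with the lowest, are shown because these genes mark the ends of the range. RefSeq promoter windows of 300 bases on GRCh38.p14, most of each window upstream of the transcription start, were matched for 8 of the 12 genes, and AP1M1, ARFGAP1, VPS18 and VPS28 were not matched. Capitals mark GGGCGG or its reverse complement CCGCCC, the core of the GC box, counted on both strands, with overlapping matches counted separately. The windows lie at chr19:7680583-7680882 on the plus strand for TRAPPC5, chr19:45178188-45178487 on the minus strand for TRAPPC6A and chr9:77177284-77177583 on the plus strand for VPS13A.
TRAPPC5: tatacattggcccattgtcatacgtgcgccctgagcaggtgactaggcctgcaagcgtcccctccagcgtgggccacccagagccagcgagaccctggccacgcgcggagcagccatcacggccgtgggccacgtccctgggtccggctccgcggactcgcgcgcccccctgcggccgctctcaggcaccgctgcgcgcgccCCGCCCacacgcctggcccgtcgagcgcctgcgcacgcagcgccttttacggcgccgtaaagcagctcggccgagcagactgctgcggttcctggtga
TRAPPC6A: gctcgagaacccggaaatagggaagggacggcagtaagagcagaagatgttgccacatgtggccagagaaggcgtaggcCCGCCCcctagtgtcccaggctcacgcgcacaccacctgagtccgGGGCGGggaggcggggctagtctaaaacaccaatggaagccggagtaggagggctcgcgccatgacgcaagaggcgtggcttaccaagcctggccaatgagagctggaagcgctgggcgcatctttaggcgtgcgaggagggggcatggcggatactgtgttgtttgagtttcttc
VPS13A: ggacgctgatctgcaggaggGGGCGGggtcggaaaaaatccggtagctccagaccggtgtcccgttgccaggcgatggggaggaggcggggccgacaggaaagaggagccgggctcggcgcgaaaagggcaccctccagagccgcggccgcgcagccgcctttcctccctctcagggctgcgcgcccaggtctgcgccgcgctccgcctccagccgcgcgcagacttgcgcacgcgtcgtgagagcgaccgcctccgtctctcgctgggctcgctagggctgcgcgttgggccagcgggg
TRAPPC5 and VPS13A had promoters of nearly equal composition, with a GC content of 71.7% and 72.7%, with 37 and 39 CpG and with 1 GC box each, whereas TRAPPC6A had 61.3%, 20 CpG and 2 GC boxes. All 8 matched windows held at least 1 GC box, up to 7 in STX1A, and 45.0% of the 35116 RefSeq windows held at least 1. The median GC content of those windows was 58.7%. The transcripts of TRAPPC5 and VPS13A were far apart, at 69.9% and 37.6% GC.

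PANX1 checked the labels. Its FPKM was 37.8, 35.3 and 28.1 in GFP replicates 1, 2 and 3 and 124, 184 and 123 in PANX1 replicates 1, 2 and 3, so that every PANX1 library lay above every GFP library (limma, Benjamini-Hochberg adjusted p = 3.38e-05). PANX1 replicate 3 stood apart from the other libraries over the whole table. Against the GFP mean, the median log2 ratio of all 1273 genes was 1.87 in that library, compared with 0.77 and 0.61 in PANX1 replicates 1 and 2, although its PANX1 level was not the highest. In the following, libraries are listed in the order of replicates 1, 2 and 3, and the values of each of the 12 genes are also given without it. Of 15 muscle and rhabdomyosarcoma markers, 4 were in the table. Desmin (DES) had 214, 277 and 354 FPKM with GFP and 384, 427 and 571 FPKM with PANX1. FGFR4 and the muscle cadherin CDH15 had higher means in PANX1 cells too, with log2 ratios of 1.29 and 1.46, while the neonatal myosin MYH8 was lower at -2.21. Without PANX1 replicate 3 these log2 ratios were 0.79, 0.71 and -1.74. Their part in the results below was not tested, and in bulk RNA fewer cells of one state and less RNA per cell cannot be told apart.

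All but VPS13A, 11 of the 12 genes, were on average higher in PANX1 cells. The 3 PANX1 values lay above the 3 GFP values in 10 of the 12 genes, a share near the 82.0% of all genes of the table that did so. They lay below them in 1, VPS13A, where 11.9% of the table did. The median log2 ratio of mean FPKM, taken without a pseudocount, was 1.24 over the 12 genes and 1.23 over the table, and 9 of the 12 were above 1, against 72.0% of the table. With limma on log2(FPKM + 1), where the added 1 damps the change of weakly expressed genes, TRAPPC5, TRAPPC6A, COPE and VPS28 rose at an adjusted p under 0.05, which is 4 of 12 beside 33.5% of the table. None of the 12 fell at that threshold in limma, beside 0.707% of the table, and 7 were higher and 0 lower at an unadjusted p under 0.05, where 58.4% and 3.38% of the table were. The 12 genes thus moved by about as much, and passed the test about as often, as the table in general, and nothing here sets them apart as a group.

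**Figure D1:**
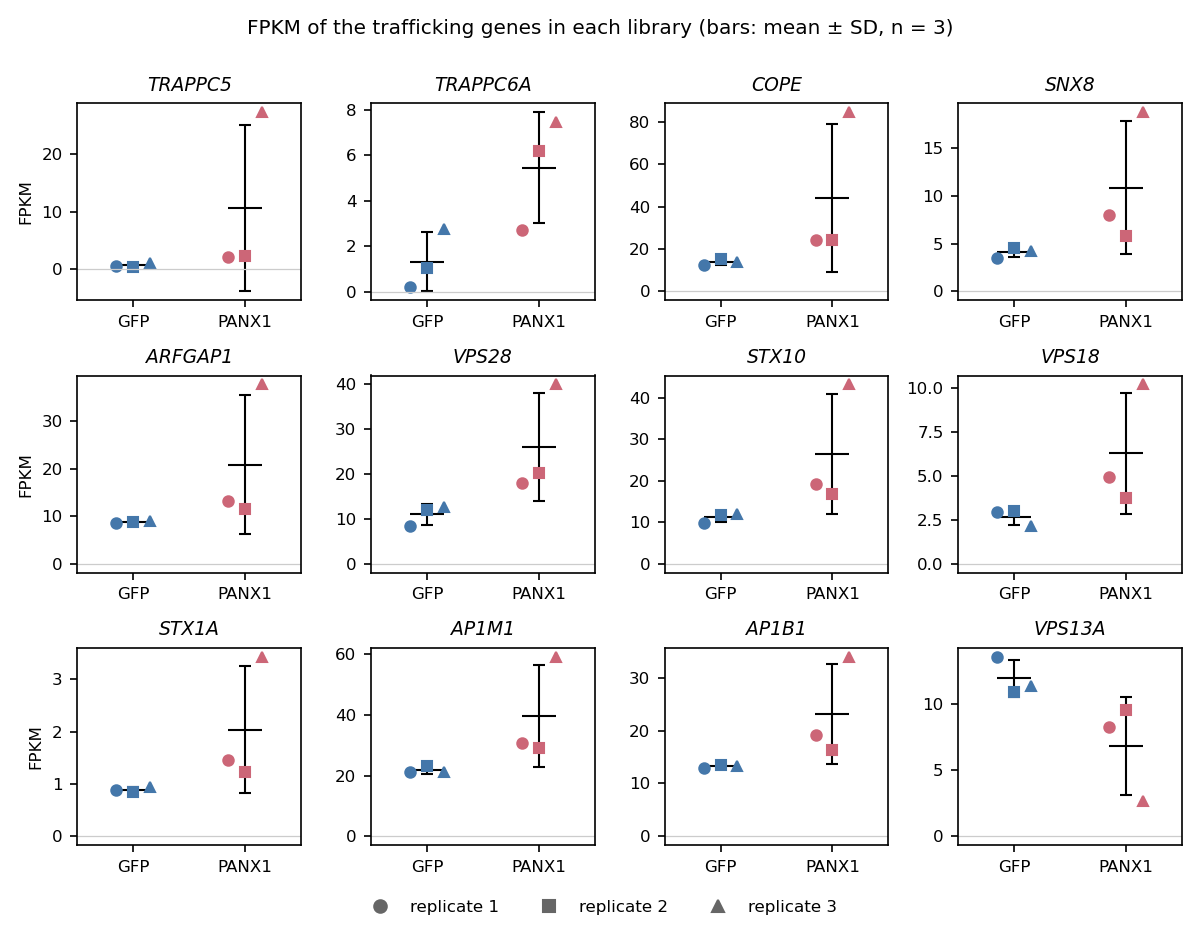
FPKM (vertical axes, linear, each with its own range) of the 12 trafficking genes in the 3 GFP libraries (blue) and the 3 PANX1 libraries (red), with the marker shape giving the replicate and black bars the mean ± SD (n = 3). PANX1 replicate 3 is the highest point in 11 panels and the lowest in the panel of VPS13A, and the groups overlap in the panel of TRAPPC6A.

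Without PANX1 replicate 3 the same 11 genes remained higher and the ratios were smaller. The median log2 ratio was 0.69 for the 12 genes and 0.70 for the table, and 2 of the 12, TRAPPC5 and TRAPPC6A, stayed above 1, against 18.9% of the table. As the spread between the remaining libraries was also smaller, limma then called 11 genes higher, beside 78.1% of the table, and VPS13A lower with an adjusted p of 0.0484, where 11.5% of the table was called lower. With GFP replicate 1 or GFP replicate 2 left out, limma called 0 of the 12 genes in either direction. In these fits 0.628% and 1.1% of the table were called higher. At an unadjusted p under 0.05, 2 and 3 of the 12 were higher, beside 253 and 329 of 1273 genes. Without GFP replicate 3 it called 2 of the 12 higher, beside 4.01% of the table. Leaving out PANX1 replicate 1 gave 3 higher genes beside 23.6% of the table, and leaving out PANX1 replicate 2 gave 8 beside 56.2%.

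The TRAPP subunits had the largest ratios of the 12 genes. TRAPP complexes activate the Rab GTPases that prepare the early Golgi for incoming vesicles, and TRAPPC5 and TRAPPC6A belong to their small core. TRAPPC5 (XLOC_010541, chromosome 19 of hg19, 7745707 to 7747748, plus strand) had 0.545, 0.474 and 1.03 FPKM with GFP and 2.22, 2.31 and 27.2 FPKM with PANX1. All PANX1 values were above all GFP values, but one library, replicate 3, was 12.0 times the mean of replicates 1 and 2. The mean rose from 0.683 ± 0.302 (SD, n = 3) to 10.6 ± 14.4 FPKM (SD, n = 3), a ratio of 15.5 that ranked 7 of 1273 from the top, counting 5 genes listed at 0 in all GFP libraries as above it. On the log2(FPKM + 1) scale the limma difference was 2.01 (standard error 0.41, adjusted p = 0.000146), and without PANX1 replicate 3 the ratio of means was 3.32 with an adjusted p of 0.00141. The call was lost without GFP replicate 1 (adjusted p = 0.0597) and without GFP replicate 2 (adjusted p = 0.075). In GENCODE a second protein-coding gene on the same strand shares 613 exonic bases with TRAPPC5, or 10.8% of its merged exons. That model of TRAPPC5 reaches 7752589, beyond the measured locus, which ends at 7747748. Whether the shared bases lie in the measured locus, and whether its FPKM depends on how reads were divided, was not tested.

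TRAPPC6A (XLOC_011749, chromosome 19, 45666186 to 45681501, minus strand) had 0.199, 1.04 and 2.78 FPKM with GFP and 2.73, 6.18 and 7.46 FPKM with PANX1. It was the only one of the 12 genes whose groups overlapped, with GFP replicate 3 just above PANX1 replicate 1 (p = 0.2 in an exact permutation test, two-sided). Its mean rose from 1.34 ± 1.32 (SD, n = 3) to 5.46 ± 2.45 FPKM (SD, n = 3), a ratio of 4.08, with a limma difference of 1.54 (standard error 0.43, adjusted p = 0.00688). The GFP libraries varied most for this gene, with a coefficient of variation of 98.3% compared with 2.16% for ARFGAP1. Unlike TRAPPC5 it did not depend mainly on PANX1 replicate 3, which was 1.67 times the mean of replicates 1 and 2, and the ratio without that library was 3.33 (limma, adjusted p = 0.00994). Without GFP replicate 1 the adjusted p was 0.224, and without GFP replicate 2 it was 0.15. The FPKM of the 2 subunits did not keep a fixed proportion, but several values were low. With GFP, TRAPPC6A had 0.199 FPKM in replicate 1, and TRAPPC5 had 0.545 and 0.474 FPKM in replicates 1 and 2. A proportion of such low values is imprecise. TRAPPC5 over TRAPPC6A was 2.73, 0.457 and 0.37 with GFP and 0.814, 0.374 and 3.65 with PANX1, a spread within each group wider than the difference between them (exact two-sided permutation test, p = 0.6).

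COPE and ARFGAP1 belong to the COPI cycle, which returns proteins from the Golgi to the endoplasmic reticulum. COPE, the epsilon subunit of the coatomer, lies on chromosome 19 (XLOC_011542, 19010323 to 19030199, minus strand). It had 12.4, 15.2 and 14.0 FPKM with GFP and 24.2, 24.1 and 84.5 FPKM with PANX1. The PANX1 values were all higher, with replicates 1 and 2 nearly equal and replicate 3 at 3.50 times their mean. COPE rose from 13.9 ± 1.42 (SD, n = 3) to 44.3 ± 34.9 FPKM (SD, n = 3), a ratio of 3.19, with a limma difference of 1.35 (standard error 0.43, adjusted p = 0.0172). Without PANX1 replicate 3 the ratio was 1.74 and limma's adjusted p 0.00328, while without GFP replicate 1, 2 or 3 the adjusted p was 0.218, 0.165 or 0.107. COPE shares 264 exonic bases, 9.2% of its merged exons, with another gene annotated on the same strand. It was the only one of 9 COPI genes in the table, so the coat as a whole was not seen here.

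ARFGAP1 stimulates GTP hydrolysis by ARF1 on Golgi membranes, which releases the coat. This gene (XLOC_013779, chromosome 20, 61904165 to 61921142, plus strand) had 8.55, 8.75 and 8.93 FPKM with GFP and 13.3, 11.6 and 37.8 FPKM with PANX1. Relative to their mean the GFP values varied least of all 12 genes, with a coefficient of variation of 2.16%, and the PANX1 values lay above them. The ratio of means was 2.39, from 8.75 ± 0.189 (SD, n = 3) to 20.9 ± 14.6 FPKM (SD, n = 3), but the limma difference of 0.97 (standard error 0.48) had an adjusted p of 0.0755. Leaving out PANX1 replicate 3 gave a ratio of 1.42 and an adjusted p of 0.02.

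The AP-1 adaptor joins clathrin to cargo at the trans-Golgi network and endosomes, and the table held its beta subunit AP1B1 and its medium subunit AP1M1, which reads tyrosine-based sorting signals. AP1M1 (XLOC_010663, chromosome 19, 16308665 to 16346156, plus strand) had 21.1, 23.1 and 21.2 FPKM with GFP and 30.8, 29.0 and 59.2 FPKM with PANX1. AP1B1 (XLOC_014750, chromosome 22, 29723669 to 29784572, minus strand) had 12.8, 13.6 and 13.3 FPKM with GFP and 19.1, 16.3 and 34.0 FPKM with PANX1. Neither gene's groups overlapped, yet these were the smallest ratios among the 11 higher genes, at 1.82 and 1.75. Their limma differences of 0.76 (standard error 0.41) and 0.70 (standard error 0.45) had adjusted p-values of 0.0906 and 0.132, and 0.0146 and 0.0306 without PANX1 replicate 3. The proportion of the AP-1 subunits varied less than that of the TRAPP pair, which had far lower FPKM with GFP. A proportion within a library cancels any shift common to its genes. The 2 AP-1 transcripts also had nearly equal GC content, at 59.4% and 59.0%. No other pair was compared, so whether this proportion is steadier than that of unrelated genes was not tested. AP1M1 over AP1B1, both in FPKM, was 1.65, 1.70 and 1.60 with GFP and 1.61, 1.78 and 1.74 with PANX1. The mean proportion was 1.65 ± 0.0531 (SD, n = 3) and 1.71 ± 0.0875 (SD, n = 3), a difference smaller than the spread in PANX1 cells (exact two-sided permutation test, p = 0.3). With so few libraries this test cannot show that the proportion was fixed.

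The syntaxins are membrane-anchored SNAREs. STX10, which acts in transport from endosomes to the trans-Golgi network (XLOC_011470, chromosome 19, 13254872 to 13261188, minus strand), had 9.96, 11.7 and 12.1 FPKM with GFP and 19.3, 16.9 and 43.3 FPKM with PANX1. Every PANX1 value exceeded every GFP value, with a ratio of means of 2.35 and a limma difference of 1.05 (standard error 0.45, adjusted p = 0.0554). A replicate block moved that adjusted p to 0.0397, and leaving out PANX1 replicate 3 moved it to 0.00598. STX1A, the syntaxin of regulated exocytosis best known from neurons (XLOC_021109, chromosome 7, 73113535 to 73134017, minus strand), was expressed at a low level. It had 0.881, 0.84 and 0.951 FPKM with GFP and 1.46, 1.23 and 3.43 FPKM with PANX1, with a ratio of 2.29 and a limma difference of 0.62 (standard error 0.32, adjusted p = 0.0828). Both syntaxins thus had separate groups but did not pass the test, and without PANX1 replicate 3 their ratios were 1.61 and 1.51. Over the table, 82.0% of genes had all PANX1 values above all GFP values, and 33.5% were called higher. No VAMP gene was in the table.

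Among the 3 genes VPS28, VPS18 and SNX8, which act at endosomes, only VPS28 passed the test, where 33.5% of the table was called higher. VPS28 is a subunit of ESCRT-I (XLOC_022244, chromosome 8, 145649000 to 145653927, minus strand). Its FPKM was 8.39, 12.1 and 12.6 with GFP and 18.1, 20.2 and 40.0 with PANX1. Its mean rose from 11.0 ± 2.30 (SD, n = 3) to 26.1 ± 12.1 FPKM (SD, n = 3), a ratio of 2.37, with a limma difference of 1.10 (standard error 0.45, adjusted p = 0.0466). The call lay close to the threshold, and it was lost without any 1 of the 3 GFP libraries (adjusted p from 0.141 to 0.243) and without PANX1 replicate 1 (adjusted p = 0.0587), but not without PANX1 replicate 3 (adjusted p = 0.00561, ratio 1.74).

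VPS18 is a core subunit of the HOPS and CORVET tethers, which prepare endosomes and lysosomes for fusion (XLOC_007153, chromosome 15, 41186628 to 41196173, plus strand). It had 2.94, 2.98 and 2.14 FPKM with GFP and 4.90, 3.76 and 10.2 FPKM with PANX1. SNX8, a sorting nexin of early endosomes (XLOC_020906, chromosome 7, 2291405 to 2354099, minus strand), had 3.55, 4.60 and 4.28 FPKM with GFP and 8.02, 5.77 and 18.8 FPKM with PANX1. Both genes had PANX1 values above all GFP values and the highest value in replicate 3. Their ratios were 2.34 and 2.62, and limma's adjusted p was 0.0957 for VPS18 and 0.0762 for SNX8. Without PANX1 replicate 3 the ratios were 1.61 and 1.66, with adjusted p-values of 0.0203 and 0.0138.

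VPS13A was the single gene with a lower mean. Its product, chorein, is a long protein that carries lipids between membranes at organelle contact sites, so despite its name it is not a coat or a tether of vesicles. VPS13A (XLOC_022403, chromosome 9, 79791672 to 80032399, plus strand) had 13.5, 10.9 and 11.3 FPKM with GFP and 8.24, 9.54 and 2.62 FPKM with PANX1. The PANX1 values were all below the GFP values, and replicate 3 was 0.295 times the mean of replicates 1 and 2. The mean was 11.9 ± 1.41 (SD, n = 3) in GFP and 6.80 ± 3.68 FPKM (SD, n = 3) with PANX1, which is 0.571 times as much. The limma difference was -0.86 (standard error 0.51, adjusted p = 0.109), and the ratio without PANX1 replicate 3 was 0.747. An antisense gene, VPS13A-AS1, shares 178 exonic bases, 0.9% of the merged exons, and use of strand in the counting is not given in the sources used here, so reads of both genes cannot be told apart there.

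**Figure D2:**
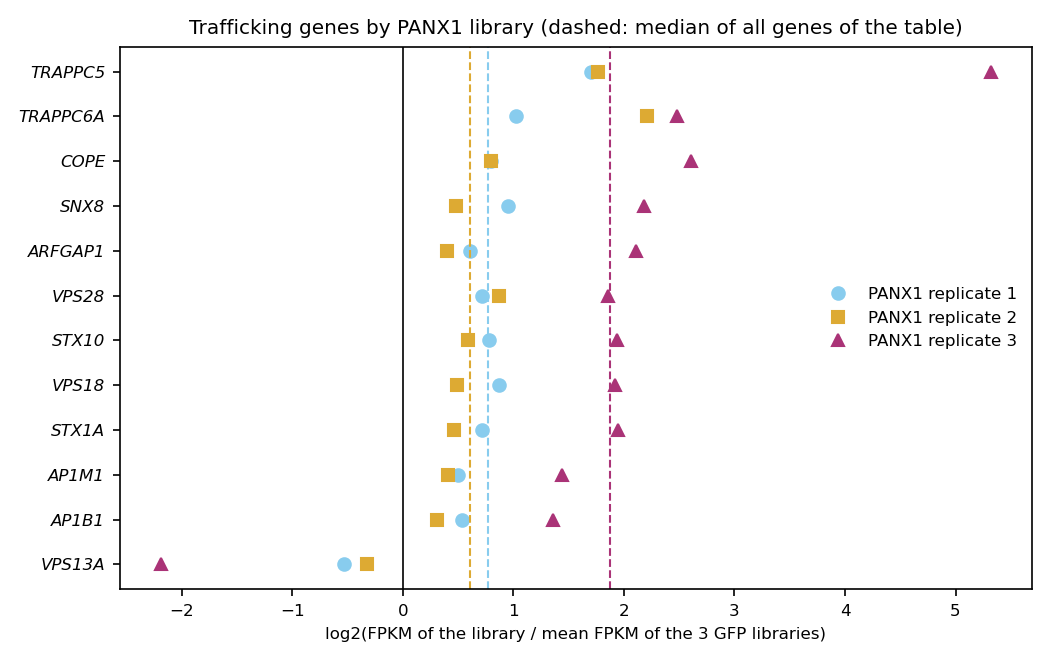
Log2 ratio of the FPKM in each PANX1 library to the mean FPKM of the 3 GFP libraries (horizontal axis) for the 12 trafficking genes, ordered by their ratio of means, with dashed lines at the median over all 1273 genes for the library of the same color. Replicates 1 and 2 lie between 0.31 and 2.21 for the 11 higher genes, and replicate 3 lies between 1.36 and 5.32. VPS13A is on the negative side in all 3 libraries.

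The same library held the highest or the lowest PANX1 value for all 12 genes, as for most of the table. PANX1 replicate 3 was the highest of the PANX1 libraries for all 11 genes with a higher mean and the lowest for VPS13A. Over the table it was the highest for 1082 and the lowest for 174 of 1273 genes. The median log2 ratio to the GFP mean over the 12 genes was 0.75, 0.48 and 1.94 in PANX1 replicates 1, 2 and 3, close to the table's 0.77, 0.61 and 1.87. Over the 12 genes, replicate 3 exceeded the mean of replicates 1 and 2 by a median of 1.24 on the log2 scale, and by 1.17 over the table. The highest excess was that of TRAPPC5 at 3.58, followed by COPE at 1.81 and ARFGAP1 at 1.60, and VPS13A was the only one of the 12 with a negative value, -1.76.

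Transcript composition and position were also described, as the names did not determine them. The GC content of the transcript was 59.0% to 69.9% in the 11 higher genes and 37.6% in VPS13A. The median was 61.9% over the 12 genes and 61.3% over the 1233 genes of the table with a value, against 49.1% for annotated protein-coding genes. The order of the log2 ratios of the 12 genes followed the order of GC content almost exactly, with a Spearman's rho of 0.986 across the 12 genes and of 0.902 without PANX1 replicate 3, compared with 0.619 and 0.473 across the table. These are descriptions across genes measured in the same 6 libraries, and genes are not independent replicates. The excess of replicate 3 over replicates 1 and 2 had a rho with GC content of 0.643 across the 12 genes and 0.672 across the table. The part of GC content in the difference between the groups was not tested. Chromosome 19 held TRAPPC5, TRAPPC6A, COPE, AP1M1 and STX10, which is 5 of 12 genes, where 18.0% of the table lies on that chromosome. Their loci were spread from 7745707 to 45681501. Transcript length ranged from 790 bases for TRAPPC5 to 11145 bases for VPS13A, with a median of 2206.5 compared with 2311 for the table.

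**Figure D3:**
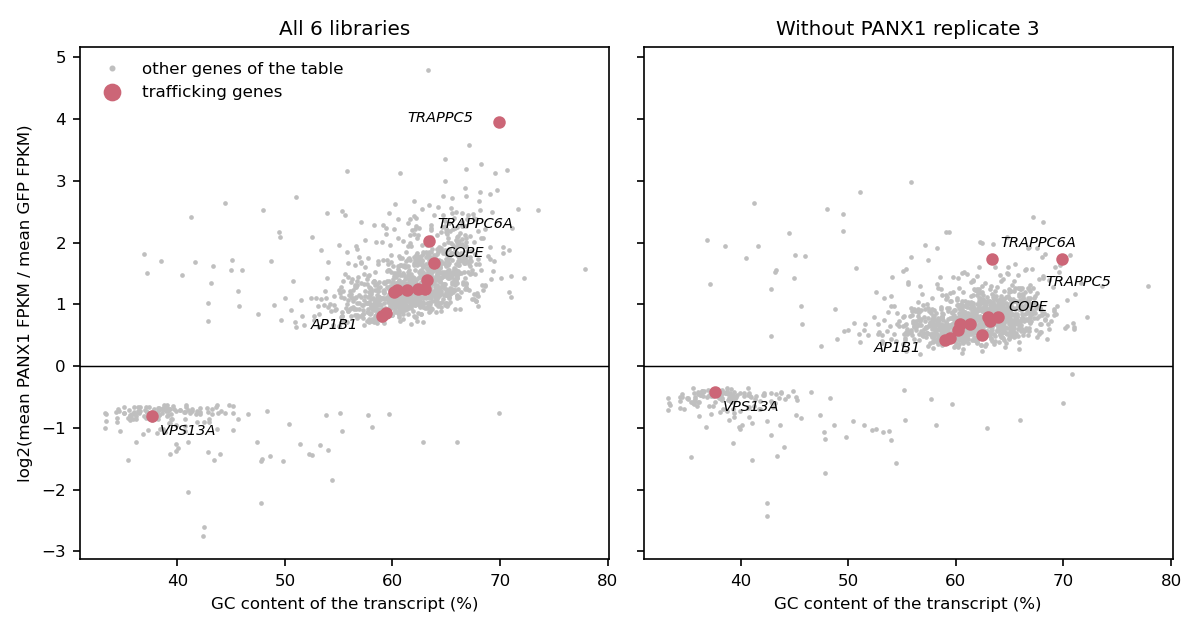
Log2 ratio of mean FPKM, PANX1 over GFP (vertical axis), against the GC content of the transcript in percent (horizontal axis), for the 12 trafficking genes (red) and the other genes of the table with a GC value (grey; 5 genes listed at 0 with GFP are not drawn), with all 6 libraries on the left and without PANX1 replicate 3 on the right. The red points climb from VPS13A at 37.6% GC through AP1B1 at 59.0% to TRAPPC5 at 69.9%, and on the right every one of the 12 is closer to 0 with the same sign.

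Rescaling the libraries made the differences of the 11 higher genes smaller. With median-of-ratios scaling, which assumes that most genes of a table do not change, the median log2 ratio of the table went from 1.23 to 0.043 and that of the 12 genes from 1.24 to 0.02. The genes with a higher mean then numbered 7 of 12, and 699 of 1273 in the table, where before scaling they numbered 11 and 1108. Relative to that shift TRAPPC5, TRAPPC6A and COPE were still above, with log2 ratios of 2.35, 1.04 and 0.36. SNX8, VPS28, STX10 and VPS18 were above by less, at 0.147, 0.099, 0.035 and 0.005. VPS13A was below at -1.60, and AP1M1 and AP1B1 turned to -0.29 and -0.34, with ARFGAP1 and STX1A also just below 0. None of the 12 was called in that limma fit. At an unadjusted p under 0.05 there were 1 higher and 2 lower, beside 145 and 171 in the table. The table holds only genes already selected for a difference, most of them higher in PANX1 cells. The assumption of this scaling is therefore not met, and a median near 0 follows from the scaling itself. The scaling also lowered the limma difference of PANX1 from 2.04 to 0.99. After a linear correction of each library for GC content, 10 of the 12 genes kept a positive limma difference, STX1A turned to -0.07, and VPS13A stayed negative at -0.16. TRAPPC5 then had a difference of 0.73 with an adjusted p of 0.245, TRAPPC6A of 0.66 with 0.284 and COPE of 0.44 with 0.182. None of the 12 was called in that fit either, where limma called 5 genes of the table. At an unadjusted p under 0.05 there were 0 of the 12, beside 275 higher and 69 lower of 1233 genes. This correction also removes any true difference that follows GC content.

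**Figure D4:**
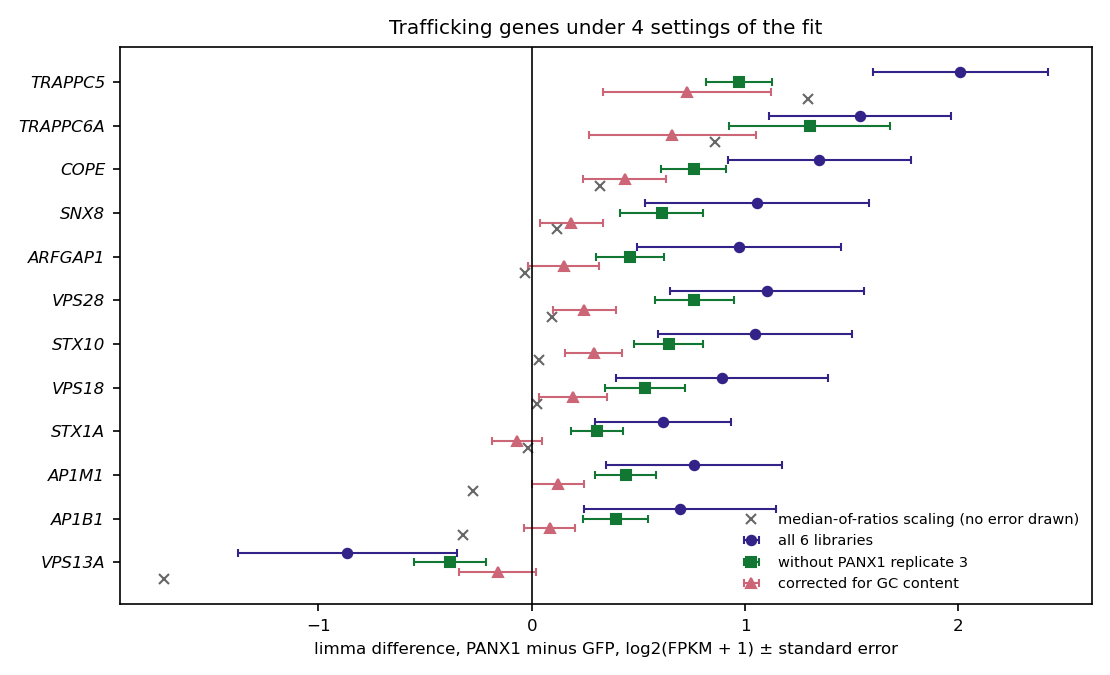
Limma difference, PANX1 minus GFP, on log2(FPKM + 1) (horizontal axis) for the 12 trafficking genes with all 6 libraries (circles), without PANX1 replicate 3 (squares), after correction for GC content (triangles), each with its standard error, and with median-of-ratios scaling (crosses, without an error). TRAPPC5, TRAPPC6A, COPE, SNX8, VPS28, STX10 and VPS18 are on the positive side in all 4 settings and VPS13A on the negative side, while AP1M1, AP1B1, ARFGAP1 and STX1A cross 0 in at least 1.

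Trafficking genes outside the naming rule gave similar values. Lists of such genes by complex and role held 15 further genes of the table. Of these, 14 had a higher mean in PANX1 cells and 1 a lower one, all with separate groups. Among all 1273 genes, the 3 PANX1 values lay above the 3 GFP values in 82.0% and below them in 11.9%. The 15 genes had a median log2 ratio of 1.20, and 0.69 without PANX1 replicate 3. Limma called 4 of the 15 higher and 0 lower, with 9 and 0 at an unadjusted p under 0.05. These counts of 4 and 9 of 15 stand beside 33.5% and 58.4% of the table. Each of the 4 calls was lost without any 1 of the 3 GFP libraries, with adjusted p-values from 0.115 to 0.240, and kept without PANX1 replicate 2 or 3. Of 30 ESCRT genes, 4 were in the table, where 33.5% of all genes were called higher, and 3 rose, namely VPS28, MVB12A of ESCRT-I (log2 ratio 1.53, adjusted p = 0.0483 from limma) and CHMP1A of ESCRT-III (1.40, limma adjusted p = 0.0317). Without PANX1 replicate 3 the log2 ratios of MVB12A and CHMP1A were 1.02 and 0.72, and without PANX1 replicate 1 the adjusted p of MVB12A was 0.0679. HGS of ESCRT-0 had a log2 ratio of 0.90, or 0.38 without PANX1 replicate 3, and did not pass. Among 29 cargo receptors and cycling proteins of the early secretory pathway, 6 were in the table. LMAN2, a lectin that binds glycoprotein cargo, rose with a log2 ratio of 1.27 (limma, adjusted p = 0.0315), as did YIF1A, a protein cycling between the endoplasmic reticulum and the Golgi, with 1.20 (limma, adjusted p = 0.0346). YIF1A was named after its values were seen, as 1 of the 4 genes called, and its adjusted p was 0.0503 without PANX1 replicate 1. The log2 ratios of LMAN2 and YIF1A were 0.70 and 0.82 without PANX1 replicate 3. TMED1 and YIF1B had 1.49 and 1.26, or 0.71 and 0.86 without that library, and did not pass.

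Of the 15 further genes, 1 had a lower mean in PANX1 cells. TMED5, a p24 cargo receptor named here after its values were seen, had 25.0, 29.6 and 28.5 FPKM with GFP and 19.7, 16.9 and 11.4 FPKM with PANX1, a log2 ratio of -0.79 with a limma adjusted p of 0.095 and a transcript GC content of 35.6%. Without PANX1 replicate 3 its log2 ratio was -0.60 with an adjusted p of 0.00709. After the correction for GC content its limma difference was 0.05 with an adjusted p of 0.867, and the part of GC content was not tested. ERGIC3, the remaining cargo gene of the table, had a log2 ratio of 0.80 and a transcript GC content of 55.3%. Without PANX1 replicate 3 its log2 ratio was 0.69, and it did not pass with all 6 libraries (limma, adjusted p = 0.0649). The ARF list held ARFGAP1 and 3 further genes out of 44, namely ACAP3, AGAP3 and GIT1, with log2 ratios of 1.20, 1.12 and 0.94, or 0.54, 0.61 and 0.55 without PANX1 replicate 3. None of them passed with all 6 libraries, where 33.5% of the table was called higher. In the list of adaptors and clathrin, AP5Z1 of AP-5 and the clathrin light chain CLTB had 1.37 and 1.23, or 0.46 and 0.67 without that library. None of the 4 genes of this list passed with all 6 libraries, beside the same 33.5% of the table. The BLOC-2 subunit HPS6 was the only 1 of 13 BLOC and HPS genes in the table, with 1.12, or 0.71 without it. No gene of the lists for COPII, the SEC61 translocon, GARP, the exocyst or COG and Golgi tethers stood in the table under a name of its own, so these complexes were not analysed here.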

How the data were processed

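RNA of 3 GFP and 3 PANX1 cultures of Rh30 cells was compared. The deposited values are FPKM, which the authors made on hg19 with TopHat2 2.0.13, Bowtie2 2.2.3 and Cufflinks 2.2.1, versions as in the submitters' processing notes. The library normalization within Cufflinks is not given in the sources used here. The deposited FPKM hold no counts per gene, so no counting interval was given. Read totals per library stand in the methods of the study and were not used here. Columns were matched to samples by the sample titles. Of 1273 entries, 32 name several genes.

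Groups were compared with limma (version 3.58.1, R 4.3.3, eBayes with a trend) on log2(FPKM + 1). The fit used all 6 libraries and no block, and p-values were adjusted by Benjamini-Hochberg over the whole table, with a threshold of 0.05. The fit was also run on simulated data with equal noise in every library and balanced rises and falls. In the simulated runs without GC slopes no library stood apart as PANX1 replicate 3 did. They therefore do not show how the fit performs on these libraries. Exact permutation tests were two-sided, and with 3 libraries against 3 the smallest possible p is 0.1. For 1233 genes (96.9%), transcript GC content and length were taken from GENCODE v44lift37 on the same build, using the longest coding transcript inside the locus. Starts are those of the table plus 1.

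The members and lists were chosen with earlier results of these data known. All members are named, with the top 3 other genes of each list by size of log2 ratio. Tried as alternatives were other pseudocounts (0.1 and 0.01), a filter at a mean FPKM of 1, no trend, replicate blocks, omission of each library, median-of-ratios scaling, correction for GC content, group medians and entries of several genes. Tables and plots were made in Python 3.11.15 (numpy 2.4.6, pandas 2.3.3, matplotlib 3.10.9), and exact tests in scipy 1.17.1.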

Additional observations from a re-analysis of the deposited data

How the results depend on the processing

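The direction of the 12 trafficking genes was the same under the pseudocounts, the filter, the blocks, no trend and each library left out, and the number that passed the threshold was not. Limma called 4 of them higher and 0 lower, and 426 and 9 genes of the table. With one library left out in turn these counts ran from 0 to 11 and from 0 to 1 for the 12 genes, and from 8 to 994 and from 0 to 146 for the table, lowest for the higher genes without GFP replicate 1 and highest without PANX1 replicate 3. Without a trend in eBayes limma called 0 genes, with 770 higher and 54 lower in the table and 8 higher trafficking genes at an unadjusted p under 0.05, and the PANX1 difference of 2.04 had an adjusted p of 0.0633. Median-of-ratios scaling also left 0 called genes, with 145 higher and 171 lower in the table at an unadjusted p under 0.05. The median log2 ratio was then 0.01997 for the 12 genes and 0.043 for the table, and the PANX1 difference was 0.99. The scaling turned the limma differences of AP1M1 (-0.28), AP1B1 (-0.32), ARFGAP1 (-0.0299) and STX1A (-0.018). Its assumption that most genes do not change is not met in a table of genes selected for a difference. Correction for GC content gave 5 higher and 0 lower genes in the table and 0 of the 12, with 33, 2 and 0 when combined with the replicate block, and STX1A turned to -0.069 in both. Genes called lower in the table numbered 22 and 20 with pseudocounts of 0.1 and 0.01, and 4 with the minimum mean FPKM.

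Whether the replicate numbers of the titles pair the libraries was not settled. The methods of the study describe the PANX1 libraries as replicates matching the GFP ones. Deviations from the group means of equally numbered libraries correlated across genes at 0.42, -0.36 and 0.14, and GFP replicate 2 correlated best with PANX1 replicate 3. With 3 libraries per group the deviations are tied to one another, so these correlations cannot decide the pairing. With the title numbers as a replicate block limma called 5 trafficking genes higher, 581 genes of the table higher and 33 lower. A replicate block by the culture numbers of the descriptions, which rests on 2 shared numbers, gave 11, 1005 and 140. Over all alternatives of the fit, 125 of 180 values of single genes kept their direction and side of the threshold, 27 lost the call, 22 gained it and 6 reversed. Causes were not tested.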

Other observations

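The Golgi tether subunit VPS51, part of the GARP and EARP complexes, shares an entry of the table with TM7SF2, a sterol reductase gene, at 1 locus of chromosome 11 and was therefore not counted among the 12 genes. The joint entry had 3.31, 4.85 and 4.28 FPKM with GFP and 6.92, 6.26 and 13.7 FPKM with PANX1, a log2 ratio of 1.11 that was 0.67 without PANX1 replicate 3. Its groups were separate, its limma adjusted p was 0.108, and the value cannot be assigned to either gene. Counting it as a trafficking gene left the number of higher calls at 4 and moved the median log2 ratio from 1.239 to 1.234.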
